A study of Mus musculus with 32 samples.

Results

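Chemokines and their receptors were followed across 4 tissues of mice on a high-fat diet given the gold drug auranofin or its vehicle. The genes were chosen by name alone: every protein-coding row whose symbol is Ccl, Cxcl, Cx3cl, Xcl, Ccr, Cxcr, Cx3cr or Xcr followed only by digits. This gave 52 genes with 51 symbols (Ccl19 has a second copy on a separate scaffold) of the 54532 genes in the table. They comprised 20 CC ligands, 14 CXC, CX3C or XC ligands, 10 CC receptors and 8 CXC, CX3C or XC receptors. Cxcl11 matched by name but was annotated as a polymorphic pseudogene and was not included.

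Wild-type C57/Bl6j mice gave RNA from the subcutaneous inguinal fat pad (iWAT), the visceral epididymal fat pad (eWAT), the liver and the intrascapular brown fat (BAT). Every mouse, controls included, was fed a 60% HFD (the high-fat diet) over 12 weeks. Treatment followed for 4 weeks with 3 doses each week of either vehicle or auranofin (1 mg/kg), a gold compound used against rheumatoid arthritis and known to inhibit thioredoxin reductase. Each of the 8 groups had 4 libraries, and no lean or untreated group was analysed here. The labels do not say that libraries came from separate animals, so p-values measure only the spread between libraries, which may be technical in part. Levels are in FPKM (fragments per kilobase of transcript, scaled to library size by the authors) and, where given as mean ± SD, over n = 4 libraries. Differences are in log2 units on the log2(FPKM + 1) scale, which understates differences of genes at low levels. All adjusted p-values are Benjamini-Hochberg values from limma over every gene tested, with 0.05 as the threshold.

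Chemokines are small secreted proteins that guide leukocytes along concentration gradients, and they act through G protein-coupled receptors named after the ligand class. In obese fat, the Ccl2 and Ccr2 pair is known for drawing blood monocytes into the tissue, where they become macrophages. CXC ligands with a Glu-Leu-Arg motif, such as Cxcl1, Cxcl2 and Cxcl5, draw neutrophils through Cxcr2, whereas interferon-induced Cxcl9 and Cxcl10 draw T cells through Cxcr3, and Cxcl12 holds cells bearing Cxcr4 in their niches. Many inflammatory ligands have binding sites for the transcription factor NF-kappaB just upstream of their first exon.

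The libraries held 13606756 to 19205640 reads on genes. Summed levels of defining markers matched the tissue labels: hepatocyte markers reached 90480 to 135000 FPKM in liver, mature adipocyte markers 6430 to 10770 in iWAT and 2327 to 8125 in eWAT, and brown adipocyte markers 4839 to 8707 in BAT. Several libraries stood apart within their group. In eWAT, vehicle libraries 1 and 2 had macrophage marker sums of 4280 and 3552 FPKM, against 1951 and 1943 in the other vehicle libraries. In iWAT, auranofin library 2 resembled the vehicle libraries, with a mature adipocyte sum of 10770 FPKM against 6430 to 7047 in the other auranofin libraries. In BAT, auranofin library 2 had the highest levels of several chemokines in its group, and the skeletal muscle marker sum ranged from 2.84 to 3121 FPKM over the 8 libraries. Both of these auranofin libraries carry the number 2. The labels do not say whether a number marks 1 animal across tissues, so it is not known whether they share an animal. Across genes, their deviations from their group means correlated at -0.17. Results that rest on these libraries are given with and without them.

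Of the 7 genes separated between treatments in BAT, Ccl2, Ccl7, Cxcl5 and Cxcl16 have no promoter entry. The promoters of the other 3, Cxcl1, Cxcl2 and Ccl9, are shown, together with that of Cxcl10, which was not separated. Each runs from 250 bases before to 50 bases after the gene start, 5′ to 3′ on the gene's own strand, from RefSeq on build GRCm38.p6 (mm10). Capitals mark matches to the NF-kappaB consensus site, searched on both strands, where overlapping matches form 1 block. Cxcl1 lies at chr5:90890995-90891294, plus strand. Cxcl2 lies at chr5:90903649-90903948, plus strand. Ccl9 lies at chr11:83578587-83578886, minus strand. Cxcl10 lies at chr5:92348840-92349139, minus strand.
Cxcl1: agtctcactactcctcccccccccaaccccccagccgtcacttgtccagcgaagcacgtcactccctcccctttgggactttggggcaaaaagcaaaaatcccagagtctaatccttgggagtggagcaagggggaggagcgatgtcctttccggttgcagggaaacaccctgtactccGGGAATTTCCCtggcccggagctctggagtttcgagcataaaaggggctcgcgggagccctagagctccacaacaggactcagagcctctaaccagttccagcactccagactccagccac
Cxcl2: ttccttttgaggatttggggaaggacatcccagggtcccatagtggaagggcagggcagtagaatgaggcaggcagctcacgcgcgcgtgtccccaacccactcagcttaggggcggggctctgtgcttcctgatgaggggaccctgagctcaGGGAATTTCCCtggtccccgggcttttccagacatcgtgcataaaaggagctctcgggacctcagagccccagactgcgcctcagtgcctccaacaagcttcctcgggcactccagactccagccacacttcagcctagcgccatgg
Ccl9: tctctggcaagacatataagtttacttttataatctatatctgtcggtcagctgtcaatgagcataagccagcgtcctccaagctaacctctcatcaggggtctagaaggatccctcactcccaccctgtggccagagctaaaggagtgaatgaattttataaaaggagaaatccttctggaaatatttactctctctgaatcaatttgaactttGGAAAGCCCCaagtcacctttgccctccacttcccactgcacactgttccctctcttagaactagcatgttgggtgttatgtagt
Cxcl10: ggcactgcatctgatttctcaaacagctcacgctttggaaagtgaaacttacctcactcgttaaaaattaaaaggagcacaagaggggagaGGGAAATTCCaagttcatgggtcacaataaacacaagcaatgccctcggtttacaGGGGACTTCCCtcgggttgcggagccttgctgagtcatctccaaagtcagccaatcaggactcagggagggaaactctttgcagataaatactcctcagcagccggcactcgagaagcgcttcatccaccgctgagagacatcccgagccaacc
Cxcl1 and Cxcl2 carried the same site, GGGAATTTCC, which began 71 and 97 bases before the start. It was also found 73 bases before the start of Cxcl3, a close relative that had hardly any reads in these tissues. With overlapping matches counted apart, Cxcl1 carried 2, beginning 71 and 70 bases upstream, and Cxcl2 carried 2, beginning 97 and 96 bases upstream. Counted in that way, Cxcl10 carried 3 matches, beginning 159, 104 and 103 bases upstream, and Ccl9 carried 1, beginning 35 bases upstream. Promoters were found for 37 of the 51 symbols, and 9 of the 37 (24.3%) held a match. The same search found a match for 8.7% of all protein-coding symbols with a promoter and in 6.9% of the 32851 promoters of that length. A match describes the letters of the window and shows no binding.

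Of the 52 genes, 32 had a mean of at least 1 FPKM in some group and 13 reached 10 FPKM. Taking 1 FPKM as the level and vehicle libraries alone, 18 of the 34 ligands reached that mean in iWAT. The number was 20 for eWAT, 12 for liver and 21 for BAT. Receptors, which are carried by few cells of a tissue, were lower: of the 18, eWAT had 6 at that level, iWAT and BAT had 2 each and liver had 0. The summed ligand level in vehicle libraries was highest in eWAT at 624 ± 283 FPKM, followed by iWAT at 272 ± 81.1, BAT at 176 ± 11.3 and liver at 91.9 ± 10.7. The summed receptor level kept this order, with 44.1 ± 17.4, 13.5 ± 1.51, 7.58 ± 0.960 and 3.23 ± 0.816 FPKM. Another 16 genes stayed under a mean of 0.5 FPKM in every group, the highest at 0.402. They were the ligands Ccl1, Ccl19 (both copies), Ccl20, Ccl26, Ccl28, Cxcl3, Cxcl15 and Cxcl17, and the receptors Ccr4, Ccr6, Ccr8, Ccr9, Cxcr1, Cxcr2 and Xcr1. The neutrophil receptors Cxcr1 and Cxcr2 are among these, and Cxcl1 and Cxcl2 act through Cxcr2. Both receptors were too low at this depth to be tested for a difference.

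**Figure D1:**
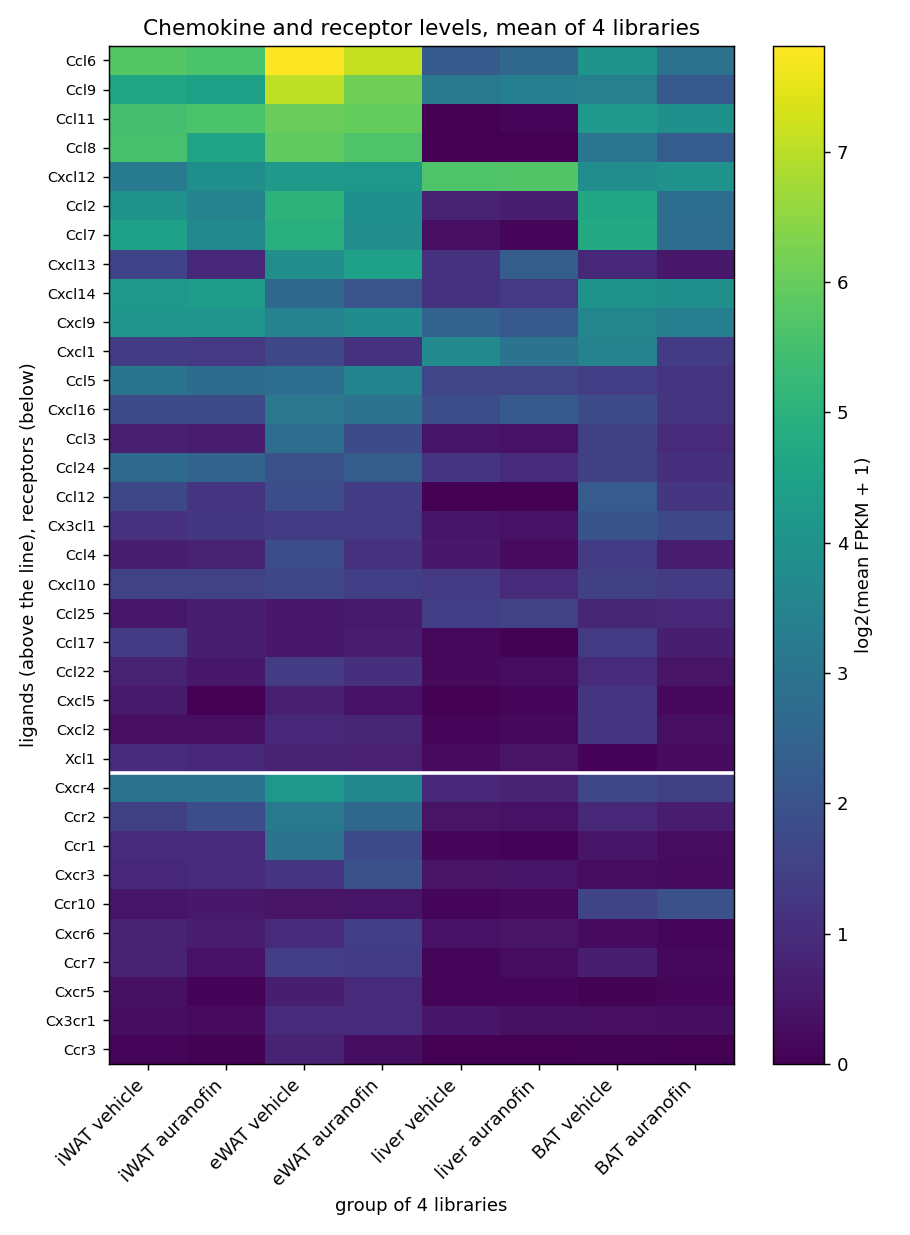
Mean level of 35 of the chemokine and receptor genes that reached 0.5 FPKM in some group. Levels are log2(mean FPKM + 1) in the 8 groups of 4 libraries. Ligands are above the white line and receptors below it; eWAT is brightest for Ccl6 and Ccl9, liver for Cxcl12, and the BAT columns differ most for Ccl2, Ccl7 and Cxcl1.

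The macrophage-derived CC ligands Ccl6 and Ccl9, which bind Ccr1, were the most abundant chemokine transcripts of eWAT. Ccl6 measured 399, 202, 154 and 139 FPKM in eWAT vehicle libraries 1 to 4 and 158, 95.01, 145 and 158 in the auranofin libraries. Ccl9 measured 218, 156, 75.6 and 77.3 FPKM in vehicle and 91.9, 36.8, 69.3 and 76.1 in auranofin libraries. Vehicle libraries 1 and 2 were the highest of all for both genes. In iWAT, Ccl6 measured 27.8, 50.8, 38.4 and 92.4 FPKM in vehicle and 31.2, 41.4, 33.5 and 81.7 in auranofin libraries, and Ccl9 14.8, 28.1, 17.6 and 31.4 and 15.1, 22.5, 13.9 and 31.01 in the same order. The fourth library of each iWAT group was the highest, and the iWAT groups overlapped. Skeletal muscle markers summed to 1663 FPKM in iWAT vehicle library 4 and 968 in iWAT auranofin library 4. They summed to 12.6 to 34.6 FPKM in the other iWAT libraries. The part of muscle in the iWAT chemokine values was not tested.

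Ccl11 (eotaxin-1), which draws eosinophils through Ccr3, was high in all 3 fat depots and had no read in the 4 liver vehicle libraries. Its level was 46.5, 43.2, 41.04 and 46.2 FPKM in iWAT vehicle libraries, 72.97, 85.9, 43.6 and 52.4 in eWAT and 16.6, 20.2, 15.01 and 19.5 in BAT. Under auranofin it was 45.1, 32.1, 54.1 and 58.2 FPKM in iWAT, 82.1, 43.95, 54.05 and 66.2 in eWAT and 13.9, 13.5, 15.9 and 13.4 in BAT. Its receptor Ccr3 had a mean of at least 0.5 FPKM only in eWAT vehicle libraries, at 1.60, 0.823, 0.21 and 0.257 FPKM, and most of that came from libraries 1 and 2. Ccl8, a CC ligand of the same gene cluster as Ccl2, measured 25.7, 68.9, 26.1 and 61.1 FPKM in iWAT vehicle libraries and 111, 36.1, 66.5 and 23.03 in eWAT vehicle libraries, with 9.15, 26.3, 22.3 and 33.5 and 34.8, 69.7, 46.8 and 48.9 under auranofin. It varied several-fold between libraries of 1 group, and like Ccl11 and Ccl12 it had no read in liver vehicle libraries.

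Among the homeostatic ligands, Cxcl12 was the leading chemokine of liver. It measured 52.8, 53.6, 44.01 and 46.4 FPKM in liver vehicle libraries and 60.4, 56.04, 41.4 and 46.02 in liver auranofin libraries. The vehicle means in the fat depots were 8.16 ± 1.65 in iWAT, 17.4 ± 2.59 in eWAT and 13.7 ± 1.27 FPKM in BAT. Every liver library lay above every fat library. Its receptor Cxcr4 followed another order, with 17.03 ± 6.68 FPKM in eWAT, 6.49 ± 0.922 in iWAT, 2.19 ± 0.884 in BAT and 0.809 ± 0.404 in liver. Cxcl14, an epithelial and adipose chemokine, measured 16.1, 18.6, 17.9 and 14.96 FPKM in iWAT vehicle libraries and 17.02, 13.9, 12.2 and 17.4 in BAT vehicle libraries, with 17.1, 23.6, 17.2 and 17.3 and 10.3, 17.5, 14.04 and 13.3 under auranofin. In eWAT its vehicle mean was 5.25 ± 2.93 FPKM, led by library 1.

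Cxcl1, the neutrophil attractant, was high in liver and BAT. In liver it measured 15.3, 7.70, 21.7 and 3.95 FPKM in vehicle and 7.81, 9.14, 6.01 and 4.61 in auranofin libraries, a wide spread with overlapping groups. Liver also carried Ccl9 at 7.92, 7.64, 9.25 and 6.70 FPKM, Ccl6 at 4.37, 2.29, 5.12 and 2.75 and Cxcl9 at 2.47, 5.02, 6.23 and 4.37 in the vehicle libraries. Under auranofin the liver values were 7.58, 9.81, 10.5 and 9.84 for Ccl9, 4.30, 4.11, 5.64 and 6.14 for Ccl6 and 4.39, 2.87, 3.42 and 3.23 for Cxcl9. All 3 sets of values overlapped between treatments. BAT was led by Ccl7 and Ccl2 in its vehicle libraries, and by Ccl11, Cxcl12 and Cxcl14 in its auranofin libraries. Cxcl12 measured 14.3, 14.96, 13.4 and 12.02 FPKM in BAT vehicle and 15.9, 11.7, 15.8 and 16.5 in BAT auranofin libraries.

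**Figure D2:**
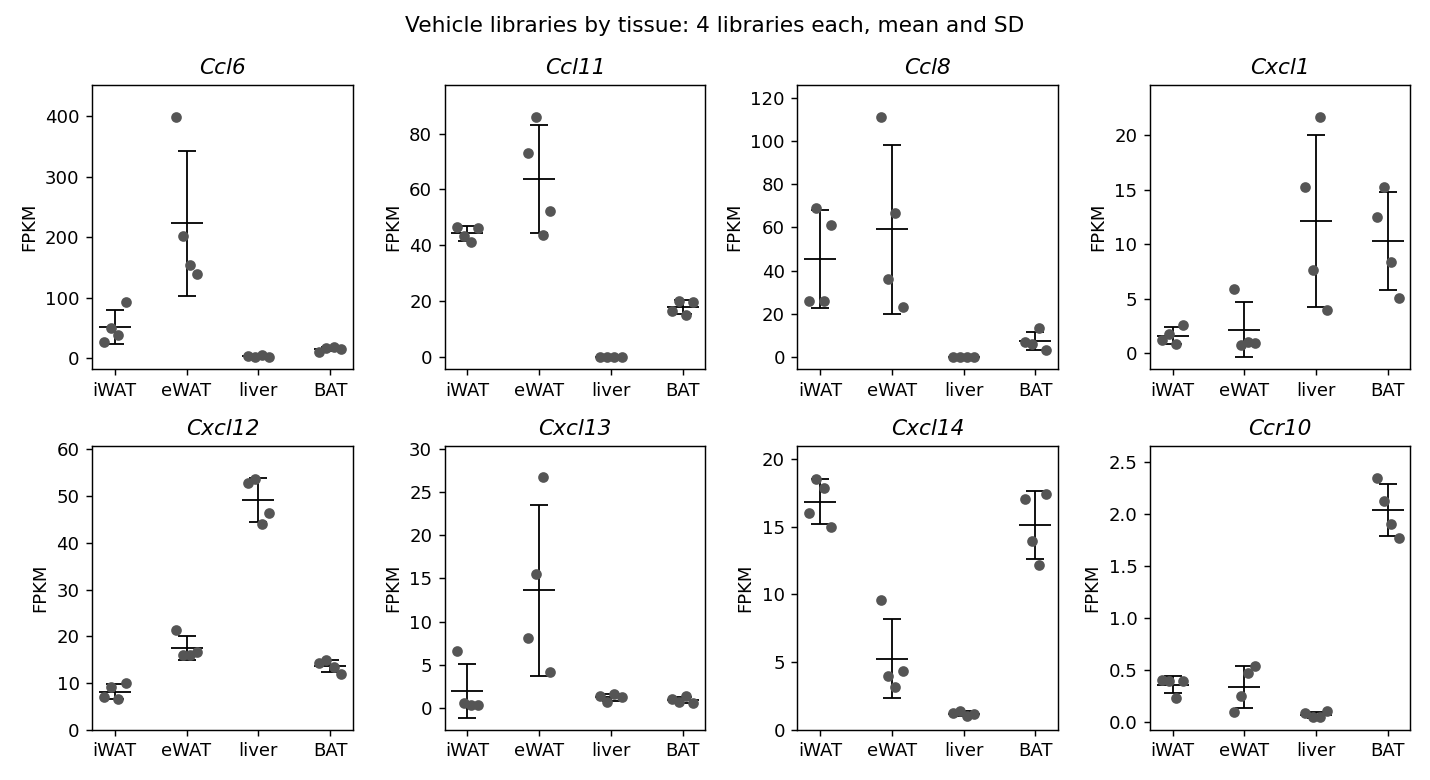
Level in FPKM of 8 chemokine and receptor genes in the 4 vehicle libraries of each tissue; points are libraries, and the bars give the mean and SD. Ccl6 peaks in eWAT, Cxcl12 in liver and Ccr10 in BAT, and Ccl11 and Ccl8 are at 0 in liver.

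The tissues were compared with each other in their vehicle libraries, in a fit of all 16, where 32 of the 52 genes passed the filter (a mean of at least 0.5 FPKM over the 16 libraries). In such bulk tissue, fewer cells of a type and less RNA per cell cannot be told apart. Against iWAT, eWAT had 18 of the 32 genes past the threshold, when 46.2% of all genes tested passed. Of these 15 were higher (21.4% of all genes) and 3 lower (24.8%). The largest higher differences were those of the B-cell attractant Cxcl13 (2.50 log2 units, SE 0.53, adjusted p = 0.00139), Ccl9 (2.39), Ccl6 (2.08) and Ccl3 (1.95). The groups overlapped for Cxcl13: iWAT vehicle library 1, which also had the highest lymph node marker sum of that depot, had 6.63 FPKM, above eWAT vehicle library 4 with 4.14. Receptors of monocytes and macrophages were higher too: Ccr2 by 1.64 (SE 0.19, adjusted p = 1.19e-05) and Ccr1 by 1.86. The lower genes were Cxcl14 (-1.61, SE 0.22, adjusted p = 3.68e-05), the eosinophil attractant Ccl24 (-0.79) and Cxcl9 (-0.61). Macrophage markers summed to 1943 to 4280 FPKM in eWAT and 478 to 725 in iWAT vehicle libraries, and their part in these differences was not tested. Without eWAT vehicle libraries 1 and 2 the counts were 13 higher and 1 lower of 31, against 20.2% and 22.1% of all genes, with Ccl6 at 1.61, Ccl9 at 1.76 and Ccr2 at 1.34 still past the threshold and Ccl2, Ccl11, Ccl22, Ccl24 and Cxcl9 no longer. On a TPM scale, which moved the median of all genes by 0.31 to 0.28, the split was 18 higher and 1 lower of 34, against 43.9% and 9.64% of all genes.

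BAT differed from iWAT in 16 of the 32 genes (50.1% of all genes passed), with 6 higher (24.4%) and 10 lower (25.7%). Cxcl1 was higher by 2.05 log2 units (SE 0.49, adjusted p = 0.00263), followed by Ccr10, a receptor of skin- and mucosa-homing lymphocytes (1.16, SE 0.11, adjusted p = 4.12e-07), the membrane-bound ligand Cx3cl1 (0.88) and Cxcl2 (0.84). Ccr10 measured 2.35, 2.12, 1.91 and 1.77 FPKM in BAT vehicle libraries and at most 0.541 in any vehicle library of the other tissues. Of its ligands, Ccl28 stayed under 0.5 FPKM in every group. Ccl27a, a ligand outside the naming rule, was at 6.71 ± 0.704 FPKM in liver and 0.743 ± 0.181 in iWAT vehicle libraries, while other rows of that symbol had no reads. The lower genes were led by Ccl8 (-2.47), Ccl6 (-1.58), the T-cell attractant Ccl5 (-1.53) and Ccl11 (-1.27). On the TPM scale, which moved the median of all genes by -0.24, the split was 3 higher and 12 lower, against 12.9% and 40.6% of all genes.

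Against eWAT, BAT had 22 of the 32 genes past the threshold (53% of all genes), with 5 higher (25.3%) and 17 lower (27.8%). Higher were Cxcl1 (1.99), Cxcl14 (1.46), Ccr10 (1.19) and Cx3cl1 (0.62), all measured in log2 units, and Ccl25, whose direction turned on the TPM scale. Lower were Ccl6 (-3.66, SE 0.36), Ccl9 (-3.53, SE 0.32), Ccl8 (-2.74) and Cxcl13 (-2.70). Ccl2 and Ccl7 did not differ between these depots past the threshold (-0.23, SE 0.40, and 0.08, SE 0.37). The TPM split was 3 higher and 24 lower, against 8.83% and 63.1% of all genes, with the median of all genes moved by -0.60. Without eWAT vehicle libraries 1 and 2 it was 7 higher and 14 lower, against 24.1% and 27.6% of all genes.

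Liver was lower than each fat depot in most of these genes. Against iWAT 20 of 32 passed (69.5% of all genes), 3 higher (35.8%) and 17 lower (33.7%). Against eWAT 29 passed (71.9%), 3 higher (37.4%) and 26 lower (34.5%), and against BAT 20 passed (63.1%), 2 higher (31.4%) and 18 lower (31.8%). Higher in liver were Cxcl12 (2.47 against iWAT, 1.45 against eWAT and 1.78 against BAT) and the thymus and gut chemokine Ccl25 (0.95, 0.90 and 0.61), whose exons overlap those of Elavl1 on the other strand in these unstranded data. Cxcl1 was higher than in iWAT (2.13, SE 0.49) and eWAT (2.08), whereas the difference from BAT was 0.09 (SE 0.49, adjusted p = 0.891). With 0 reads in liver vehicle libraries, and a floor of 3 reads per library, Ccl11 was at least 174-fold higher in iWAT, 251-fold in eWAT and 70.3-fold in BAT. By the same floor Ccl8 was at least 84.7-fold, 110-fold and 13.7-fold higher. Next came Ccl7 (-4.02 against iWAT, -4.36 against eWAT and -4.43 against BAT), Ccl6 (-3.43 and -5.51 against the white depots) and Ccl2 (-3.94 against BAT). The TPM scale moved the median of all genes by -0.51, -0.88 and -0.23 in these comparisons, and no called gene changed direction on it. Those 6 comparisons share vehicle libraries, so their counts are not independent.

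Auranofin was compared with vehicle in each tissue alone, which asks how the drug alters chemokine transcripts in mice already on a high-fat diet. In BAT the monocyte attractants Ccl2 and Ccl7 and the neutrophil attractants Cxcl1, Cxcl2 and Cxcl5 were lower in every auranofin library than in every vehicle library, but none passed the threshold. Of the 27 genes tested there, 0 were called by limma, against 0.023% of all genes, and limma's voom on the rebuilt counts made no call either. At an unadjusted p under 0.05 stood 13 of the 27 (48.1%), all lower, against 11.2% of all genes. Below 0 were 24 of the 27, against 45% of all genes, with a median of -0.48 against 0.02 for all genes. The groups did not overlap for 7 genes with auranofin lower (Ccl2, Ccl7, Ccl9, Cxcl1, Cxcl2, Cxcl5 and Cxcl16), against 3.05% of all genes, and for 0 with auranofin higher, against 2.28%. Another 25 chemokine and receptor genes were too low in BAT to be tested.

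Ccl2, the main ligand of Ccr2, measured 21.8, 21.4, 29.4 and 24.9 FPKM in vehicle libraries 1 to 4 and 2.77, 13.9, 3.55 and 3.92 in auranofin libraries 1 to 4. In all, 3 auranofin libraries lay under 4 FPKM and library 2 lay between them and the vehicle libraries. The difference was -2.08 (SE 0.38, limma adjusted p = 0.212). Ccl7, which also binds Ccr2 and sits beside Ccl2 on chromosome 11, also had auranofin library 2 between the others and the vehicle libraries. It measured 24.1, 24.1, 30.1 and 26.6 FPKM in vehicle and 2.88, 16.02, 2.17 and 2.47 in auranofin libraries (-2.38, SE 0.48, limma adjusted p = 0.212). The receptor Ccr2 was low throughout, at 0.82 ± 0.27 FPKM in vehicle and 0.516 ± 0.287 in auranofin libraries (-0.27, SE 0.16).

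The neutrophil attractants stood side by side on chromosome 5. Cxcl1 measured 12.5, 15.3, 8.39 and 5.04 FPKM in vehicle and 0.956, 4.40, 0.591 and 0.616 in auranofin libraries (-2.21, SE 0.44, limma adjusted p = 0.212). The highest auranofin value, in library 2, was close below the lowest vehicle value, in library 4. Cxcl2 measured 1.23, 1.96, 0.849 and 0.997 FPKM and 0.247, 0.425, 0.153 and 0.133 in the same order (-0.85, SE 0.16, limma adjusted p = 0.212). Cxcl5, which adipose tissue also secretes in obesity, measured 1.01, 0.475, 1.61 and 2.02 FPKM and 0, 0.363, 0.085 and 0.0591 (-0.97, SE 0.22, limma adjusted p = 0.22). For Cxcl2 and Cxcl5, both at low levels, the log2(FPKM + 1) scale compresses the difference: over the alternatives tried it reached -2.41 and -3.57. Neutrophil markers themselves summed to 4.10 to 7.62 FPKM in vehicle and 3.72 to 8.05 in auranofin libraries, and 0 of the 3 that could be tested were called.

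Ligands typical of macrophages were also lower. Ccl9 measured 6.60, 8.71, 11.9 and 11.3 FPKM in vehicle and 1.54, 6.32, 2.52 and 3.40 in auranofin libraries (-1.34, SE 0.31, limma adjusted p = 0.22). Ccl6 measured 10.6, 17.2, 18.99 and 15.5 FPKM and 2.52, 12.2, 5.03 and 6.68 (-1.25, SE 0.36, limma adjusted p = 0.282), and auranofin library 2 overlapped the vehicle range. Cxcl16, a membrane-anchored scavenger receptor and Cxcr6 ligand whose exons overlap those of Zmynd15, measured 1.74, 3.12, 2.20 and 2.85 FPKM and 0.875, 1.70, 1.31 and 1.33 (-0.59, limma adjusted p = 0.254). The 2 CC clusters of chromosome 11 were lower in all 5 of their tested genes each: Ccl2, Ccl7, Ccl11, Ccl12 and Ccl8 (chr11:82035571-82305690, which also holds Ccl1), with a median of -0.88, and Ccl5, Ccl9, Ccl6, Ccl3 and Ccl4 (chr11:83525778-83664683), with a median of -0.80. Only 3 tested genes lay above 0: Ccr10 (2.35, 2.12, 1.91 and 1.77 FPKM in vehicle and 3.26, 1.96, 2.48 and 3.67 in auranofin libraries, 0.32, SE 0.15), Cxcl12 (0.12, reversed on the TPM scale) and Ccl25 (0.06). The T-cell attractants Cxcl9 (-0.25, SE 0.13) and Cxcl10 (-0.16, SE 0.19) were below 0 with overlapping groups. Summed over all ligands, the BAT level was 161 to 188 FPKM in vehicle libraries and 76.0, 130.4, 82.1 and 82.8 in the auranofin libraries.

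**Figure D3:**
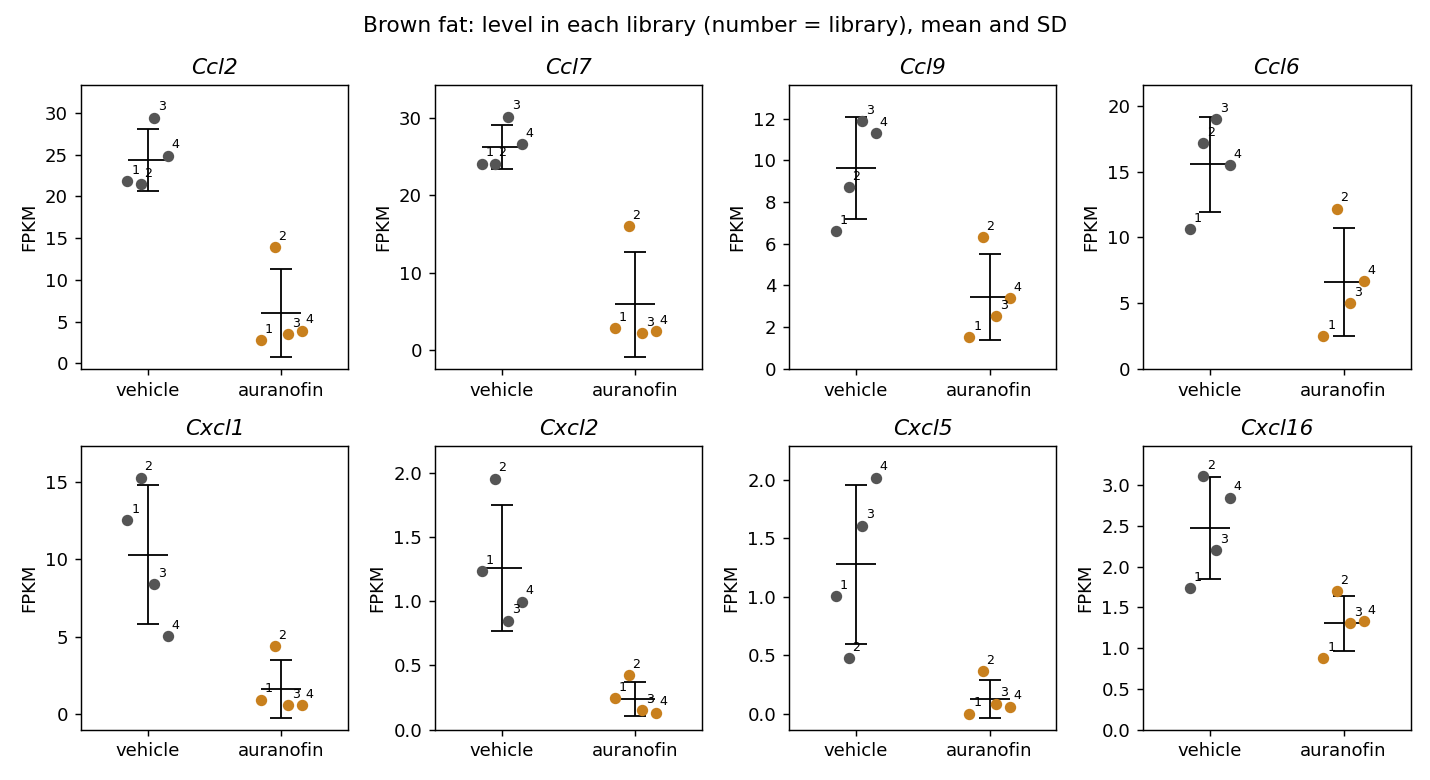
Level in FPKM of 8 chemokine ligands in the 4 vehicle and 4 auranofin libraries of BAT; points are libraries with their number, and bars give the mean and SD. Auranofin library 2 is the highest of its group in all 8 panels, and for all but Ccl6 the groups do not overlap.

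A single library changed which of these genes were called. Without auranofin library 2 of BAT, 6 of 27 passed (22.2%, against 1.59% of all genes in that fit, 1.43% lower), all lower: Ccl7 (-2.95), Ccl2 (-2.52), Cxcl1 (-2.62), Ccl9 (-1.61), Ccl6 (-1.57) and Cxcl2 (-0.92). Across all alternatives the limma adjusted p of Ccl7 ranged from 7.07e-05 to 0.521 and that of Ccl2 from 0.000335 to 0.521, with the change of Ccl2 between -2.52 and -1.86. The skeletal muscle markers summed to 2.84, 3121, 3.23 and 1287 FPKM in auranofin libraries 1 to 4, with library 2 the highest of the 8. The 4 vehicle libraries had sums of 61.8, 3.14, 274 and 765 FPKM. The part of muscle in the chemokine values was not tested.

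Markers of macrophages were lower in the same libraries. The 14 macrophage markers summed to 212, 405, 243 and 281 FPKM in vehicle and 118, 240.5, 139 and 145 in auranofin libraries, with library 2 again the highest of its group and within the vehicle range. Of 13 tested, 12 were below 0, with a median of -0.59, and none was called. Cd68, a macrophage lysosomal protein, measured 19.8 ± 5.26 FPKM in vehicle and 8.42 ± 3.42 FPKM in auranofin libraries. The lipid-associated macrophage markers were below 0 in 10 of 11 tested, with a median of -1.06, and Lgals3 (galectin-3) measured 50.1 ± 8.21 FPKM in vehicle and 16.4 ± 9.09 FPKM in auranofin libraries. Fibroblast and preadipocyte markers were below 0 in 8 of 9, with a median of -0.60. Mature adipocyte markers were above 0 in 9 of 10, with a median of 0.18. The part of cell make-up in the chemokine differences was not tested.

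Other lists of genes around the chemokine system were read beside them in BAT. NF-kappaB regulators and targets were below 0 in 15 of 15 tested, with a median of -0.27 and 0 called. Icam1, the endothelial adhesion molecule that leukocytes bind, measured 6.07 ± 0.894 FPKM in vehicle and 3.04 ± 0.848 FPKM in auranofin libraries (limma adjusted p = 0.212). Interferon-gamma response genes were below 0 in 14 of 17, with a median of -0.26, and 1 passed: the GTPase gene Iigp1 was lower by a log2 difference of -0.845 (SE 0.085, limma adjusted p = 0.0187). Genes of signalling below chemokine receptors were below 0 in 15 of 21 (median -0.16) and those of leukocyte adhesion and migration in 10 of 14 (median -0.11), with 0 called in either. Pik3r5, the regulatory subunit of the kinase downstream of chemokine receptors, measured 1.75 ± 0.376 FPKM in vehicle and 0.644 ± 0.145 FPKM in auranofin libraries (limma adjusted p = 0.167). Among chemokines named outside the rule and atypical receptors, 5 of 8 were below 0 (median -0.18), with Pf4 (platelet factor 4, also a macrophage product) at 20.8 ± 5.58 FPKM in vehicle and 10.6 ± 3.73 FPKM in auranofin libraries. Of the 27 tested, 18 had a promoter entry: 4 with an NF-kappaB match (Ccl9, Cxcl1, Cxcl10 and Cxcl2, median -1.09) and 14 without one (median -0.36). This describes letters and levels only, and any part of NF-kappaB in the differences was not tested. Ccl2, Ccl7, Cxcl5 and Cxcl16, whose groups did not overlap, had no promoter entry and are in neither set.

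In eWAT the receptors Ccr1 and Ccr2 had lower means under auranofin and the T-cell receptors Cxcr3 and Cxcr6 higher ones, and none passed. Other receptors of these cells differed little in their means. Cx3cr1 was at 0.917 ± 0.0749 FPKM in vehicle and 0.931 ± 0.584 in auranofin libraries, and Ccr7 at 1.66 ± 0.426 and 1.60 ± 1.03. Limma called 0 of the 31 genes tested, as it called 0% of all genes, and voom called 0. At an unadjusted p under 0.05 stood 6 of 31 (19.4%), 4 of them lower, against 11.4% of all genes. Below 0 were 24 of 31, against 49.6% of all genes, with medians of -0.18 and 0.00. No gene had groups that did not overlap, against 3.95% of all genes with auranofin lower and 3% with auranofin higher.

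Cxcr3, the receptor of Cxcl9 and Cxcl10 on effector T cells, measured 1.06, 0.444, 2.24 and 1.24 FPKM in vehicle and 1.23, 2.75, 3.97 and 3.44 in auranofin libraries (0.77, SE 0.30, limma adjusted p = 0.429). Cxcr6, a receptor of tissue-resident T cells, measured 1.45, 0.398, 1.16 and 0.605 FPKM and 1.52, 1.09, 2.03 and 2.22 (0.53, SE 0.21, limma adjusted p = 0.429). In both, 3 auranofin libraries lay above every vehicle library and the fourth lay within their range. All 12 T and NK cell markers tested were above 0 too, with a median of 0.43 and 0 called. Their sums were 12.8, 10.2, 26.6 and 15.9 FPKM in vehicle and 16.8, 23.5, 43.01 and 27.4 in auranofin libraries. Ccl5, a ligand that T cells make, was at 6.09 ± 3.18 FPKM in vehicle and 10.5 ± 3.77 in auranofin libraries (0.77, SE 0.38). Cxcl9 was at 10.1 ± 2.07 and 13.03 ± 2.89 FPKM (0.34, SE 0.20).

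Ccr1, the receptor of Ccl6, Ccl9 and Ccl3, measured 14.6, 6.21, 2.98 and 2.87 FPKM in vehicle and 1.79, 1.78, 3.64 and 2.27 in auranofin libraries (-0.97, SE 0.42, limma adjusted p = 0.429). Ccl2 measured 60.7, 21.4, 23.3 and 21.9 FPKM and 21.8, 4.36, 12.00 and 18.3 (-1.16, SE 0.49, limma adjusted p = 0.429). Vehicle library 1 was the highest of the 8 for both genes, and for Ccr1 library 2 came next. Ccl3 (-0.89), Ccl9 (-0.86), Ccl7 (-0.98), Ccl6 (-0.58), Ccr2 (-0.54) and Cxcr4 (-0.47) lay below 0 as well. Macrophage markers summed to 4280, 3552, 1951 and 1943 FPKM in vehicle and 2376, 1123, 1916 and 2482 in auranofin libraries. Of the 14 macrophage markers 11 were below 0 (median -0.36), and of the 11 lipid-associated macrophage markers all 11 (median -1.18), with 0 called. Fibroblast and preadipocyte markers were below 0 in 10 of 10 (median -0.45), and mature adipocyte markers above 0 in 9 of 10 (median 0.92). Hepatocyte markers were above 0 in 10 of 10 (median 1.44), with sums of 134, 124, 236 and 196 FPKM in vehicle and 184, 1144, 361 and 202 in auranofin libraries, library 2 the highest. The part of cell make-up was not tested.

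Leaving out vehicle libraries 1 and 2 brought the median of the tested chemokine and receptor genes from -0.18 to -0.03, with 19 of 32 below 0. Ccr1 was then at -0.25, Ccl2 at -0.84 and Cxcr3 at 0.45, each with a limma adjusted p of 1. That fit kept only vehicle libraries 3 and 4 of eWAT, the most alike of its vehicle pairs. The chi-square per gene on rebuilt reads was 10.6 between them, and 120 to 173 for the other vehicle pairs. Vehicle libraries 1 and 2 also differed from each other, at 124. Over all alternatives the adjusted p of Ccr1 ranged from 0.0427 to 1, that of Ccl2 from 0.0866 to 1 and that of Cxcr3 from 0.0206 to 1. Without vehicle library 1 alone the median was -0.06, and without library 4 it was -0.35. On the TPM scale it was -0.31, with the median of all genes at -0.11.

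**Figure D4:**
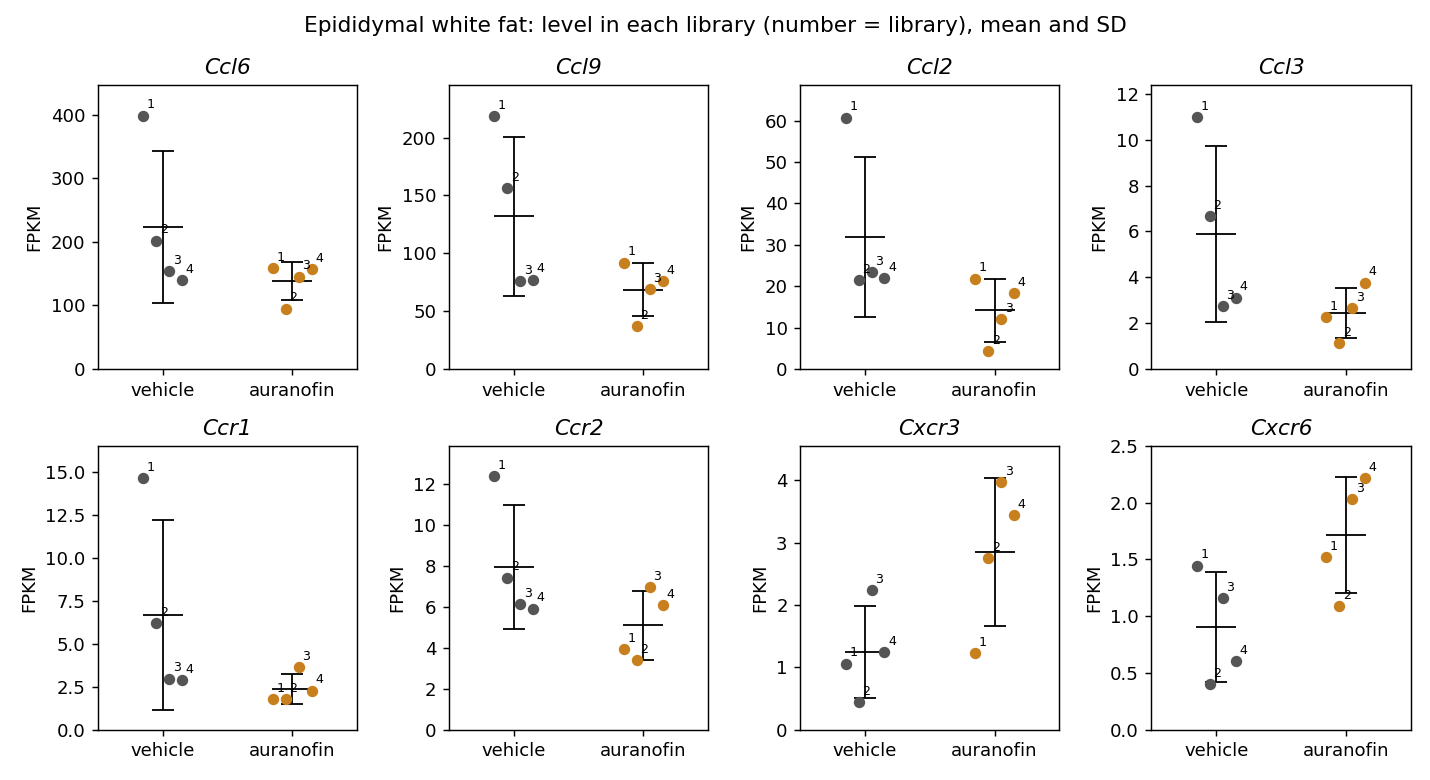
Level in FPKM of 4 ligands and 4 receptors in the 4 vehicle and 4 auranofin libraries of eWAT; points are libraries with their number, and bars give the mean and SD. Vehicle library 1 is the highest of the vehicle libraries in 7 of the 8 panels, and the groups overlap in all of them.

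In iWAT, Cxcl12 was higher in 3 of the 4 auranofin libraries than in any vehicle library, and Ccl8 and Ccl7 had lower means under auranofin, but none passed the threshold. Of the 29 genes tested limma called 0, as it called 0% of all genes, and voom called 0. At an unadjusted p under 0.05 stood 1 of 29 (3.45%), against 22% of all genes. Below 0 were 17 of 29, against 52.2% of all genes, and this count was 8 of 29 on the TPM scale, where the median of all genes moved from -0.02 to 0.20. No groups were without overlap, against 2.41% of all genes with auranofin lower and 2.77% with auranofin higher.

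Cxcl12, which retains Cxcr4-bearing cells in stroma, measured 6.93, 9.10, 6.62 and 9.98 FPKM in vehicle and 16.9, 7.18, 16.8 and 14.1 in auranofin libraries (0.64, SE 0.25, limma adjusted p = 0.209). Libraries 1, 3 and 4 lay above every vehicle library, and library 2 lay within their range. Without auranofin library 2 the difference was 0.90 and passed (limma adjusted p = 0.00331, with a range of 0.00187 to 0.457 over the alternatives). It was the 1 call of 30 in that fit (3.33%), where 36.4% of all genes passed. Markers of endothelium, a tissue known to make Cxcl12, summed to 143, 169.7, 185 and 186 FPKM in vehicle and 279.7, 136, 317 and 245 in auranofin libraries, with library 2 again apart. Their part in the difference was not tested. Cxcr4 differed by 0.02 (SE 0.20).

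Ccl8, Ccl7, Ccl12 and Ccl22 had lower means in iWAT under auranofin. Ccl8 had a mean of 45.5 ± 22.8 FPKM in vehicle and 22.8 ± 10.2 in auranofin libraries (-0.95, SE 0.45, limma adjusted p = 0.237). Ccl7 measured 18.97, 26.9, 9.05 and 29.2 FPKM and 13.96, 14.7, 10.8 and 9.23 (-0.65, SE 0.33, limma adjusted p = 0.259), and Ccl12 1.60, 1.98, 1.29 and 3.95 and 0.57, 2.17, 1.66 and 0.751 (-0.48, limma adjusted p = 0.323). Ccl22, a dendritic cell ligand of Ccr4, measured 0.993, 0.936, 0.174 and 0.806 FPKM and 0.244, 0.434, 0.421 and 0.52 (-0.27, limma adjusted p = 0.364). Groups overlapped for all of them. Without vehicle library 4, the highest for Ccl2, Ccl7, Ccl12 and the skeletal muscle marker sum, 12 of 27 genes were below 0. Macrophage markers were below 0 in 7 of 14, with a median of -0.01.

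In liver, only 14 of the 52 genes were high enough to test, and none of their differences between treatments passed the threshold. Limma called 0 of 14, as it called 0% of all genes, and voom called 0. At an unadjusted p under 0.05 stood 1 (7.14%), against 6.04% of all genes. Below 0 were 6 of 14, against 52.3% of all genes, with medians of 0.04 and -0.01, and no groups were without overlap (2.2% of all genes lower and 1.52% higher). Cxcl13 measured 1.31, 0.608, 1.63 and 1.19 FPKM in vehicle and 1.98, 0.975, 7.99 and 4.96 in auranofin libraries (0.97, SE 0.42, limma adjusted p = 0.79), and its mean rested on auranofin libraries 3 and 4. Cxcl16 measured 2.17, 2.69, 3.48 and 2.03 FPKM and 3.05, 2.79, 3.48 and 4.67 (0.32, limma adjusted p = 0.79). Ccl6 and Ccl9 differed by 0.42 (SE 0.21) and 0.23 (SE 0.12), both with a limma adjusted p of 0.79. Cxcl10 measured 1.21, 2.72, 1.52 and 0.609 FPKM and 0.857, 1.42, 0.631 and 0.634 (-0.37, SE 0.24, limma adjusted p = 0.83). All 13 macrophage markers tested and all 6 Kupffer cell markers were above 0 (medians 0.33 and 0.47), with 0 called.

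**Figure D5:**
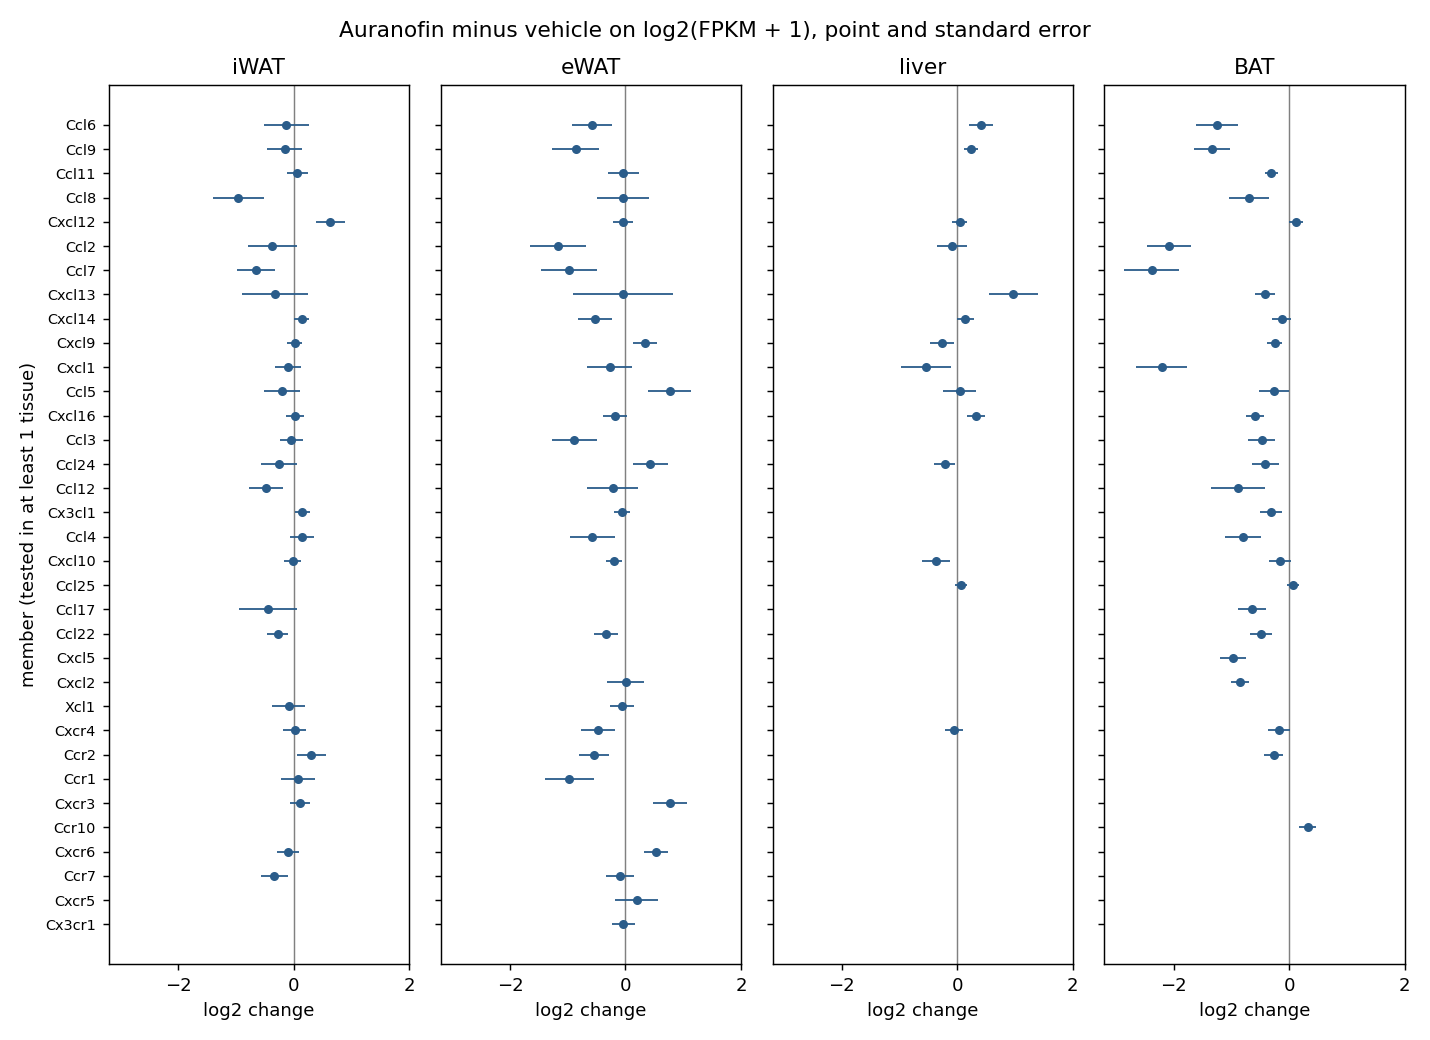
Difference between auranofin and vehicle on the log2(FPKM + 1) scale, with its standard error, for chemokine and receptor genes tested in each tissue; ligands are listed above receptors. BAT has 24 of 27 points left of 0, with Ccl2, Ccl7 and Cxcl1 farthest, and no point in any tissue passed the threshold.

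Whether the auranofin difference itself varied between tissues was tested as an interaction, and 0 chemokine or receptor genes were called in any of the 4 tests. Voom was not run for these tests. The interaction of iWAT and BAT called 0.0224% of all genes, and the other 3 tests called 0%. At an unadjusted p under 0.05 stood 7 of 29 genes for iWAT and BAT (23.1% of all genes), 3 of 31 for eWAT and iWAT (23.5%), 5 of 33 for eWAT and BAT (5.84%) and 5 of 30 for liver and fat (6.04%). The BAT difference was below that of iWAT by 2.11 for Cxcl1 (SE 0.53, limma adjusted p = 0.106), 0.86 for Cxcl2 (limma adjusted p = 0.114) and 1.71 for Ccl2 (limma adjusted p = 0.142). Without BAT auranofin library 2, 3 of 30 genes passed in this test (Ccl7, Ccl2 and Cxcl1), against 2.49% of all genes. Without iWAT auranofin library 2, 4 of 29 passed (Ccl11, Cxcl12, Cxcl1 and Cxcl2), or 13.8%, against 27.4% of all genes. The TPM scale moved the median of all genes by 0.31 in this test. Against BAT, eWAT differed by 1.94 for Cxcl1, 0.62 for Cxcr6 and 0.83 for Cxcr3 (limma adjusted p = 0.777 for each). Against iWAT, eWAT differed by -0.85 for Ccr2 and -0.68 for Cxcl12 (limma adjusted p from 0.203 to 0.211). Without iWAT auranofin library 2, Cxcl12 passed there (-0.94, limma adjusted p = 0.0255), the 1 call of 31, against 14.8% of all genes. The TPM scale moved the median of all genes by -0.32 in that test. Liver differed from the fat depots by 0.57 for Cxcl16, 1.02 for Ccl9 and 1.07 for Ccl6 (limma adjusted p from 0.781 to 0.798).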

How the data were processed

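The authors deposited FPKM values for 54532 genes in 32 libraries, made from total RNA with a non-stranded kit, per the labels. CASAVA, STAR 2.6.1d, featureCounts 1.5.0-p3, DESeq2 1.20.0 and the build mm10 are named, per the submitters' processing notes, without their roles or order. Reads were rebuilt from FPKM, gene length and each library's smallest step, and 100% of values came within 0.1 of a whole read. The library size behind the FPKM was a rescaled one. Groups came from the labels, and no library was left out of the main results.

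Tissues were fitted alone, and vehicle libraries of all tissues together, with limma 3.58.1 (R 4.3.3, intensity trend) on log2(FPKM + 1), for genes with a mean FPKM of at least 0.5. Alternatives were pseudocounts of 0.1 and 0.5, no filter or a filter of 1, TPM and quantile scaling, no trend, voom, quality weights, a replicate block (statmod 1.5.0), 1 fit of all 32 libraries, auranofin libraries for the tissue comparisons, and leaving out each library. Leaving out eWAT vehicle libraries 1 and 2 was added after the data were seen. The fitting code was checked on simulated counts whose changes were known. The members, gene lists, marker lists and tests were chosen with earlier results of these data known. Genes named are the 5 with the highest level in each tissue, the 5 with the smallest p in each auranofin comparison, the 4 with the largest called difference per direction between tissues and the 3 with the smallest p per interaction. Others are named after their values were seen, and not all genes the rule allows are reported here, 1 gene of the family among them, which stays in the counts and medians. Exons of 7 of the genes overlap those of other genes, whose reads cannot be parted. Plots used Python 3.11.15 with matplotlib 3.10.9.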

Additional observations from a re-analysis of the deposited data

Results flagged for a closer look

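Among 68 groups of 4 libraries examined for a single library far from its fellows, 6 had one, where chance gives about 1 in 20. In BAT, auranofin library 2 stood apart for 4 genes. Its Ccl2 level was 13.9 FPKM against 2.77 to 3.92 in the other auranofin libraries, its Ccl7 level 16.02 against 2.18 to 2.88 and its Cxcl1 level 4.40 against 0.591 to 0.956. Its Cxcl12 level was the lowest, at 11.7 against 15.8 to 16.5. In eWAT, vehicle library 1 had 60.7 FPKM of Ccl2 against 21.4 to 23.3 in the other vehicle libraries. In iWAT, auranofin library 2 had 23.6 FPKM of Cxcl14 against 17.1 to 17.3.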

How the results depend on the processing

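Of 350 recomputed counts of called chemokine and receptor genes, 340 stayed within 1.5 times the main count, and none of the 382 recomputed values of the 20 genes named in the auranofin comparisons changed direction. In iWAT the count of 0 became 2 with quality weights (Cxcl12 and Ccl7, where 46.3% of all genes passed), 1 in a fit of all 32 libraries (5.48%), and 0 to 1 when a library was left out (1 without auranofin library 2, 36.4%). In eWAT it became 4 in the fit of all libraries (9.24%). In BAT it became 3 in that fit (0.735%), and 0 to 6 when a library was left out (6 without auranofin library 2, 1.59%). Between liver and BAT the filter of 1 FPKM gave 13 in place of 20, with fewer genes tested (65.9%). The interaction of eWAT and iWAT gave 0 to 1 (14.8% without iWAT auranofin library 2), and that of iWAT and BAT 0 to 4 (27.4% without the same library), when a library was left out. Apart from those with fewer libraries or genes, the cause was not tested. With a replicate block the counts were 0 in every auranofin comparison, and 18, 16, 22, 20, 29 and 20 between tissues, as without it. Same-numbered libraries were not taken as pairs: their deviations correlated from 0.07 to 0.40 in iWAT, where 3 of 4 matched their own number best, and some pair fell below 0.1 in every tissue. Genes under 0.5 FPKM were not tested, since few reads lie behind them.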

Other observations

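Markers of B cells and of lymph nodes bear on Cxcl13 and Ccr7, which organise lymphoid tissue. In iWAT, vehicle library 1 had 6.63 FPKM of Cxcl13 against 0.302 to 0.554 in the other vehicle libraries and 1.63 FPKM of Ccr7 against 0.234 to 0.510. Its lymph node marker sum was 9.89 FPKM against 0.421 to 2.02. The B cell marker sum of iWAT was 814, 751, 625 and 739 FPKM in vehicle and 319.7, 719.7, 366 and 376 in auranofin libraries, where library 2 lay within the vehicle range. In eWAT, Cxcl13 measured 8.11, 15.5, 26.8 and 4.14 FPKM in vehicle and 12.2, 4.74, 65.2 and 2.79 in auranofin libraries, beside B cell sums of 297, 803, 875 and 448 and 561, 904, 943 and 319.5. Auranofin library 3 was the highest for both.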
